A study of Mus musculus with 7 samples.

Results

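Retinoid metabolism and retinoid binding were followed across the development of the mouse lung epithelium through 9 genes: the retinol-oxidizing alcohol dehydrogenases Adh1 and Adh7, the retinaldehyde dehydrogenases Aldh1a1, Aldh1a2 and Aldh1a3, the retinol carrier Rbp4, the retinoic acid-binding protein Crabp2, the retinol uptake receptor Stra6 and the retinoic acid receptor Rarb. They were chosen by gene symbol. Of the 9, 8 were found among the 21121 genes of the tables, and Adh7 was not analysed here. The libraries came from lungs of C57BL/6 mice at 5 ages, counted in days of gestation (E) or after birth (P). E13.5, E15.5 and P14 have 1 library each, and E18.5 and P56 have 2. The labels name no genotype or treatment, and the groups differ by age. Live cells positive for Epcam, and negative for the lineage antigens CD31, CD45, Ter119 and CD146, had been sorted after enzymatic digestion and magnetic depletion, and their polyadenylated RNA was amplified and counted by 3' SAGE, in which a short tag from the 3' part of a transcript stands for it. Separate animals or litters are not named for the libraries of an age, so p-values measure the spread between these libraries, which may be technical.

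Retinol reaches cells bound to Rbp4 and can enter through Stra6. Alcohol and retinol dehydrogenases oxidize it to retinaldehyde, and the Aldh1a enzymes oxidize retinaldehyde to retinoic acid. Crabp2 delivers retinoic acid to the nucleus, where heterodimers of retinoic acid receptors and retinoid X receptors bind pairs of repeated DNA elements and switch target genes on. In the mouse lung this signal is known for its part in the formation of the lung bud from the foregut, and later in the formation of alveoli, and much of the enzyme Aldh1a2 is known from mesenchyme and mesothelium rather than from epithelium.

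Rarb is itself a textbook target of retinoic acid, and its promoter is shown because it was the most abundant member and holds a repeat of the kind these receptors bind. Promoter windows of 300 bases, running from 250 bases before to 50 bases after an annotated start (RefSeq, GRCm38.p6), were found for 6 of the members, 11 windows in all. They were searched on both strands for direct repeats of the element GNTCA with a spacing known for retinoic acid receptors, written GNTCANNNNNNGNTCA and GNTCANNNGNTCA (N is any base), and for the TATA box TATAAA. The Rarb window at chr14:16575427-16575726, on the minus strand, was the only member window with a direct repeat, of the wider spacing, at 52 to 37 bases before the start. Among all 32851 windows of the same length 0.861% held that pattern and 1.12% the narrower one, which no member window held. A TATA box was found in 1 member window, the second of Rbp4 at chr19:38124762-38125061 (minus strand), and in 13.6% of all windows. In both sequences, 5′ to 3′, capitals mark the match, which describes letters and not binding.
Rarb: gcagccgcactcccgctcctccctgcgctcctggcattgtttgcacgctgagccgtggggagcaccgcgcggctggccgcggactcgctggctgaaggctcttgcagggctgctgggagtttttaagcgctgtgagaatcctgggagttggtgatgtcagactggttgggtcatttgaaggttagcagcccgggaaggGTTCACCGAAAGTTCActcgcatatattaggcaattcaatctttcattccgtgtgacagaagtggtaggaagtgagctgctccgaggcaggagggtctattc
Rbp4: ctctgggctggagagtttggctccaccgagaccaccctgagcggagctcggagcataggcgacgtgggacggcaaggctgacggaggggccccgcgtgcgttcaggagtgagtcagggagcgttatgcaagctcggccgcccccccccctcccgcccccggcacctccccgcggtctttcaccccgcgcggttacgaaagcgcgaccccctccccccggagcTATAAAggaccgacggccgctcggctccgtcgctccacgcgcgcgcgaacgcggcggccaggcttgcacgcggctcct

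Depth was 2559927 to 3895740 reads per library. Values are tag counts scaled by the authors with 1 factor per library, and 1 read was worth 0.236 to 0.385 units. At this depth the members were scarce transcripts. Together they took 0.00488% of the reads in E13.5 cells, 0.00277% in E15.5, 0.00206% and 0.00114% in E18.5, 0.00107% in P14 and 0.00215% and 0.00226% in P56, and no member reached a stage mean of 100. Over the 7 libraries the members had between 5 reads (Aldh1a3) and 206 reads (Rarb). By their mean over libraries, Rarb lay above 64.6% of all listed genes and Aldh1a3 above 19.3%. Intervals given below for values are 95% exact Poisson intervals of the reads, those for ratios are exact conditional intervals, and both cover counting error only. Epcam, the sorting antigen, had 148 to 643 reads per library, Ptprc (CD45) 0 to 4, Pecam1 (CD31) 0 to 4 and Mcam (CD146) 0 to 26.

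**Figure D1:**
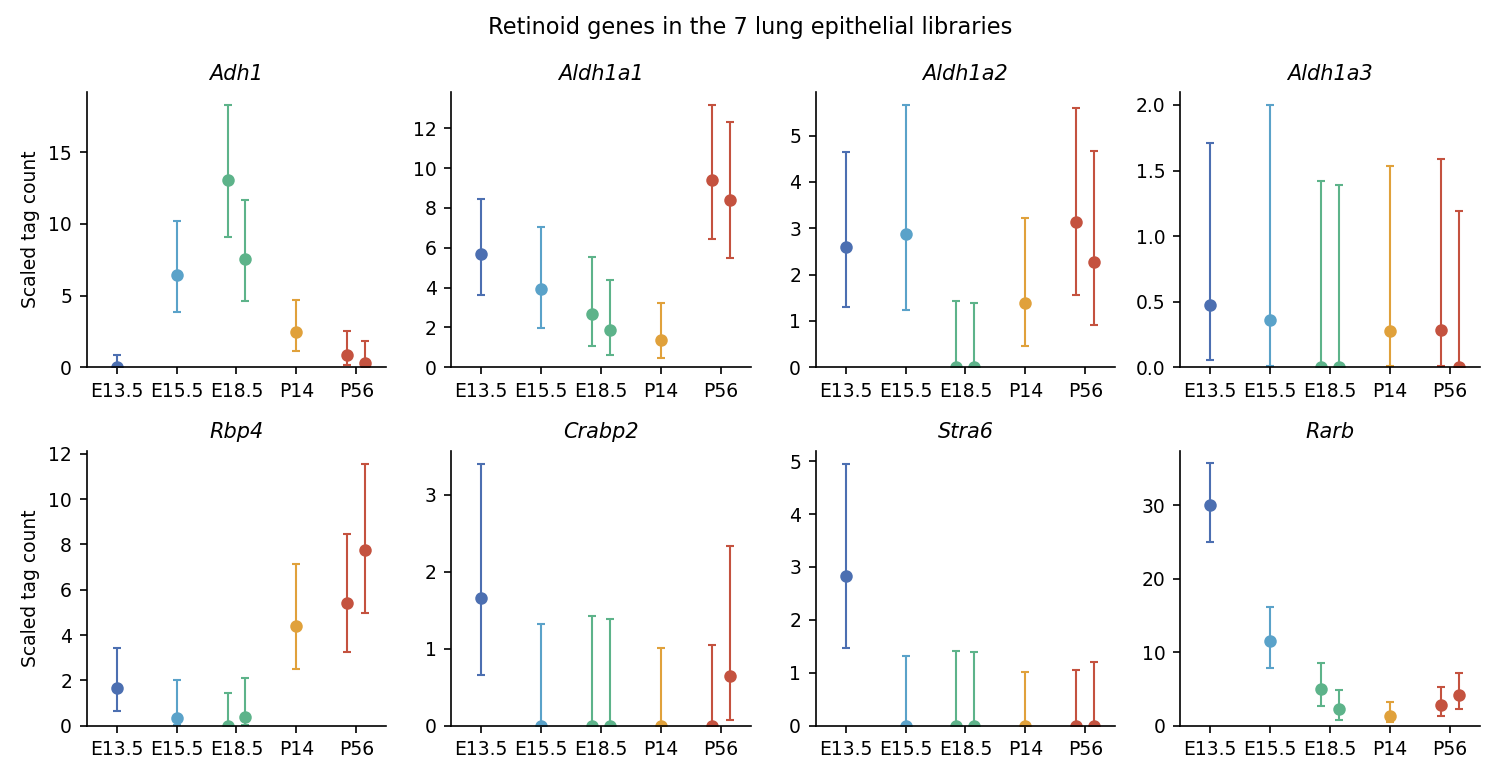
Scaled tag count (y axis, a scale of its own in each panel) of the 8 retinoid genes at the 5 stages (x axis); each point is 1 library and bars are 95% exact Poisson intervals of its reads. Rarb is highest at E13.5 (30.0), Adh1 at E18.5 (13.1 and 7.54), Rbp4 and Aldh1a1 at P56, and Stra6 has reads at E13.5 alone.

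Each gene was compared between stages in 1 fit across all genes, limma-trend on log2(value + 1), and called where the p adjusted by Benjamini-Hochberg was under 0.05. The stages with 1 library were assumed to vary like E18.5 and P56, and the pseudocount of 1 understates changes of genes with few reads. Of the 8 genes, 5 passed the filter on low values (Rarb, Adh1, Rbp4, Aldh1a1 and Aldh1a2). Stra6, Crabp2 and Aldh1a3 did not pass and are described without a test. A gene with few reads passes that filter only if some stage holds enough of them, so the share of tested members that were called is not evidence about the pathway.

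At E18.5, relative to the mean of E13.5 and E15.5 (the early stages), the receptor Rarb and the enzyme Aldh1a2 fell and Adh1 rose. These were the 3 called members of 5 tested, against 29.1% of all 12964 tested genes called in that comparison, 15.8% higher and 13.4% lower at E18.5. edgeR, a count model on the recovered reads, called the same 3 and 30.8% of all genes. P14 and E18.5 were separated by no called member of 5, where 3.11% of all genes were called, and P56 and P14 by none, where 0.818% were. In those comparisons 2 members and 1 member had an unadjusted limma p under 0.05, and edgeR called none of the 5, with 5.29% and 2.06% of all genes called. At P56 relative to E18.5, Rbp4, Aldh1a1 and Aldh1a2 rose and Adh1 fell, 4 called members of 5 against 14.2% of all genes, 8.07% higher and 6.15% lower at P56. edgeR called Rbp4 and Adh1, 2 of 5, and 16.2% of all genes. The comparisons share the E18.5 libraries: a member low at E18.5 enters both as a fall and as a rise.

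**Figure D2:**
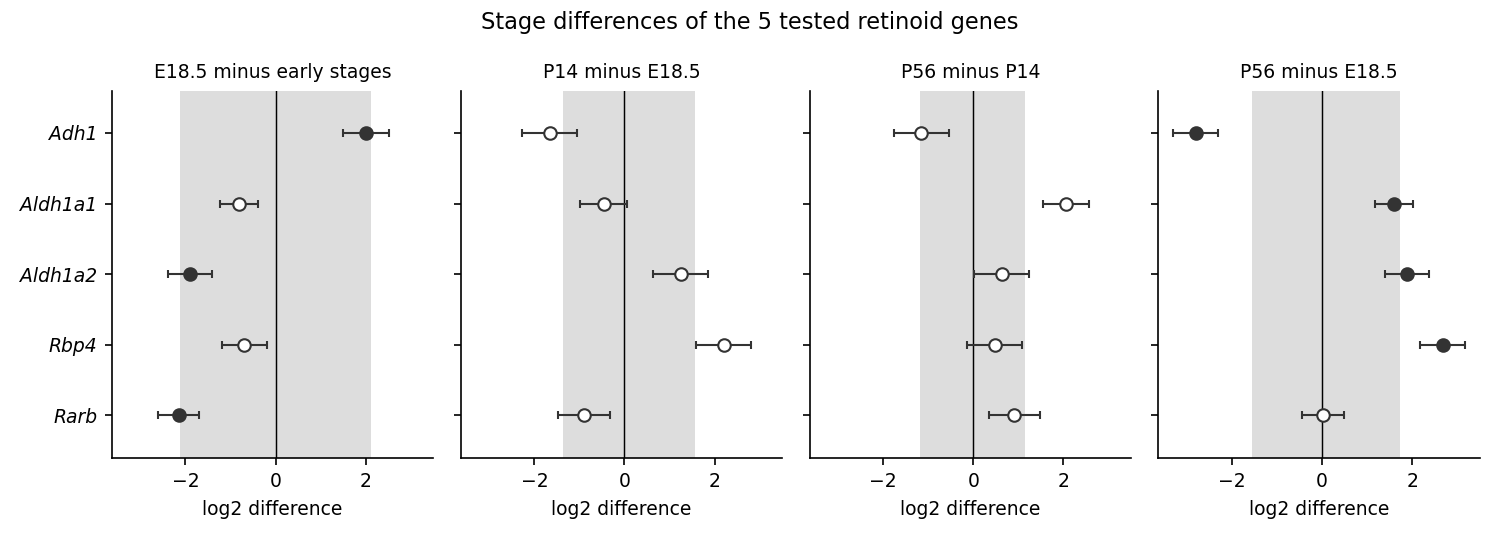
log2 difference (x axis) with its standard error for the 5 tested members (rows) in 4 stage comparisons (panels), from limma-trend on log2(value + 1). Filled points are called at an adjusted p under 0.05, the grey band spans the 5th to 95th percentile of all tested genes, and the early stages are the mean of E13.5 and E15.5. Adh1 lies at 2.01 in the first panel and at -2.81 in the last.

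Rarb, a nuclear receptor that binds retinoic acid (chromosome 14, 16430839 to 16819156, GRCm38, GENCODE vM21), had a scaled count of 30.0 (interval 25.0 to 35.7) in E13.5 cells, 11.5 (7.85 to 16.2) in E15.5, 5.005 and 2.26 in E18.5, 1.38 (0.447 to 3.21) in P14 and 2.85 and 4.21 in P56. E13.5 stood above every other library, E15.5 second, and the E18.5 and P56 libraries overlapped. At E15.5 it had 32 reads, against 127 at E13.5, a ratio of 0.383 (0.251 to 0.568), with 1 library a stage and no test. It fell to 3.63 ± 1.94 (SD, n = 2) at E18.5, by 2.15 on the log2 scale against the early stages (SE 0.463, limma adjusted p = 0.0133; edgeR adjusted p = 0.00514). Without the E13.5 library the call was lost, with limma adjusted p = 0.147 and edgeR adjusted p = 0.16 for E18.5 against E15.5. P56, at 3.53 ± 0.965, differed from E18.5 by a log2 difference of 0.02 (SE 0.463, limma adjusted p = 0.993), a direction that turned under TMM scaling (-0.04). Rara, a related receptor, had 51.3 in E13.5 cells, 15.1 in E15.5, 15.0 and 27.5 in E18.5, 36.0 in P14 and 27.6 and 34.3 in P56, and was called in none of the 4 comparisons (limma adjusted p of 0.318 to 0.938). Rarg lay between 30.4 and 55.6 and Rxra between 4.14 and 11.8 in the 7 libraries, without a call.

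Crabp2, which carries retinoic acid to its receptors (chromosome 3, 87948666 to 87953376), had 7 reads at E13.5, a scaled count of 1.65 (0.665 to 3.41), 0 reads in the 5 libraries from E15.5 to P56 replicate 1, and 2 reads in P56 replicate 2. Over all later libraries its level was 0.0662 times that of E13.5 (0.00671 to 0.348). Its relative Crabp1 had 1 read in all, at P14. Fabp5, a fatty acid-binding protein that can also carry retinoic acid, had 31.2 in E13.5 cells, 33.0 in E15.5, 164 and 86.7 in E18.5, 146 in P14 and 168 and 193 in P56, and rose at E18.5 against the early stages by a log2 difference of 1.86 (limma adjusted p = 0.00488).

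Stra6, the membrane receptor that takes up retinol from Rbp4 (chromosome 9, 58063788 to 58153996), had 12 reads at E13.5, a scaled count of 2.84 (1.47 to 4.95), and 0 reads in each of the 6 later libraries. With a floor of 3 reads over the later libraries together, it was 17.3-fold lower after E13.5. The exact interval of the ratio of later libraries to E13.5 reached up to 0.0833. Lrp2 (megalin), an endocytic receptor known in the kidney to take up retinol bound to Rbp4, was also lower at E15.5 than at E13.5, but higher from E18.5 on. At E15.5 it had 4 reads, against 28 at E13.5, a ratio of 0.217 (0.0553 to 0.62), with 1 library a stage and no test. It had 6.62 in E13.5 cells, 1.44 in E15.5, 21.6 and 43.3 in E18.5, 159 in P14 and 349 and 357 in P56. The P56 libraries lay above P14, and P14 above both E18.5 libraries. Lrp2 rose by log2 differences of 2.88 at E18.5 against the early stages, 2.34 at P14 against E18.5 and 3.48 at P56 against E18.5 (limma adjusted p = 0.00111, 0.0334 and 0.000959).

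Rbp4, the carrier of retinol in blood (chromosome 19, 38116629 to 38125281), had 7 reads in E13.5 cells, 1 in E15.5, 0 and 1 in E18.5, 16 in P14 and 19 and 24 in P56. As scaled counts these were 1.65 (0.665 to 3.41), 0.359, 0 and 0.377, 4.40 (2.52 to 7.15), and 5.41 and 7.77. All 3 postnatal libraries lay above all 4 prenatal ones. At P56 it averaged 6.59 ± 1.67, against 0.188 ± 0.266 at E18.5 (SD, n = 2 each), a log2 difference of 2.68 (SE 0.498, limma adjusted p = 0.0134; edgeR adjusted p = 0.0117). In reads that is a ratio of 34.2 with a wide counting interval, 5.82 to 1382, since E18.5 rests on 1 read. Without P56 replicate 1 or P56 replicate 2 edgeR did not call Rbp4 (adjusted p = 0.0547 and 0.103). P14 against E18.5 had a log2 difference of 2.203 (limma adjusted p = 0.112), and P56 against P14 one of 0.47 (limma adjusted p = 0.884). The TATA box in the second Rbp4 window printed above lies 28 to 23 bases before the start.

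Adh1, a cytosolic alcohol dehydrogenase that also oxidizes retinol (chromosome 3, 138260991 to 138290698), had its highest values at E18.5. It had 0 reads at E13.5, where the exact interval allows a scaled count of up to 0.872. Its scaled count was 6.46 (3.83 to 10.2) at E15.5, 13.1 (9.07 to 18.3) and 7.54 (4.60 to 11.6) at E18.5, 2.48 (1.13 to 4.70) at P14 and 0.854 and 0.324 at P56. Both E18.5 libraries lay above every other library, although the interval of the lower one overlapped that of E15.5. At E15.5 it was 9.11-fold higher than at E13.5 with a floor of 3 reads, and the exact interval of that ratio began at 6.68. Adh1 rose at E18.5 against the early stages by a log2 difference of 2.01 (SE 0.502, limma adjusted p = 0.0229 and edgeR adjusted p = 0.00479). That call rested on E13.5: without that library E18.5 stood against E15.5 alone, with limma adjusted p = 0.599. At P56 it fell to 0.589 ± 0.375, against 10.3 ± 3.93 at E18.5 (SD, n = 2 each), by 2.81 on the log2 scale (SE 0.502, limma adjusted p = 0.0115; edgeR adjusted p = 0.00373). In reads this was 4 against 54, a ratio of 0.0589 (0.0155 to 0.16).

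Markers of other cell types also differed between these libraries. The 12 mesenchymal markers summed to 59.8 in E13.5 cells, 202 in E15.5, 132 and 123 in E18.5, 86.4 in P14 and 97.3 and 56.0 in P56, with 1 to 5 of the 12 at 0 reads in each library. Among them Tcf21, a lung fibroblast factor, had 0 reads in E13.5 cells, 9 in E15.5, 35 and 23 in E18.5, 18 in P14 and 0 and 2 in P56. Others of the list ran differently: Dcn, a proteoglycan of connective tissue, had a scaled count of 14.2 in E13.5 cells, 32.6 in E15.5, 6.16 and 0.377 in E18.5, 13.8 in P14 and 70.9 and 44.0 in P56. Tagln, a smooth muscle gene, had 71 reads in E13.5 cells and 0 to 4 in every later library, and the collagen gene Col3a1 had its most, 215, in E15.5 cells. The 10 alveolar type 1 markers summed to 58.4 in E13.5 cells, 758 in E15.5, 7375 and 8293 in E18.5, 6781 in P14 and 3320 and 3806 in P56, none of them at 0. Aqp5 made up 2545 and 3000 of the P56 sums, and the other 9 summed to 775 and 806 at P56, against 5445 and 6112 at E18.5. Their part in the Adh1 differences was not tested. In bulk samples fewer cells of a type and less RNA per cell cannot be told apart.

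Of 9 further tested enzymes that oxidize retinol or handle retinaldehyde, 1 was called at E18.5 against the early stages (Dhrs3), 11.1% of them, against 29.1% of all genes in that comparison, and none in the other 3 comparisons by limma or edgeR, where 1 to 4 had an unadjusted limma p under 0.05. Adh5, a widely expressed alcohol dehydrogenase, lay between 9.96 and 16.1 in the 7 libraries. Rdh10, which oxidizes retinol to retinaldehyde, had 4.73 in E13.5 cells, 3.59 in E15.5, 7.70 and 9.42 in E18.5, 27.2 in P14 and 13.1 and 15.2 in P56. Its highest library was P14, where the log2 difference from E18.5 was 1.57 (limma adjusted p = 0.0988), short of a call. Dhrs3, which reduces retinaldehyde back to retinol and is itself known to be induced by retinoic acid, had 1.42 in E13.5 cells, 3.23 in E15.5, 7.70 and 6.78 in E18.5, 20.6 in P14 and 15.7 and 18.8 in P56. It rose at E18.5 against the early stages by a log2 difference of 1.36 (limma adjusted p = 0.0248; edgeR adjusted p = 0.0191), and both of its E18.5 libraries lay above both early ones and below all postnatal ones. Without E13.5 the call was lost (limma adjusted p = 0.175). P56 against E18.5 gave a log2 difference of 1.14 for Dhrs3 (limma adjusted p = 0.0727).

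Aldh1a1, a retinaldehyde dehydrogenase (chromosome 19, 20492715 to 20643465) had 5.67 (3.63 to 8.44) in E13.5 cells, 3.95 (1.97 to 7.06) in E15.5, 2.70 and 1.88 in E18.5, 1.38 (0.447 to 3.21) in P14 and 9.39 and 8.42 in P56. P14 was its lowest library and the P56 libraries its highest. At P56 it averaged 8.91 ± 0.686, against 2.29 ± 0.574 at E18.5 (SD, n = 2 each), a log2 difference of 1.60 (SE 0.423, limma adjusted p = 0.0461). edgeR gave adjusted p = 0.0556 for the same difference, so this call sat at the threshold. edgeR called Aldh1a1 without P14 (adjusted p = 0.0487) and not without E13.5 or E15.5 (0.0531 and 0.0524). Leaving out E18.5 replicate 1 also gave an edgeR call, in a fit that called more of all genes. Leaving out E18.5 replicate 2 or either P56 library gave none, with fewer of all genes called in the P56 fits. P56 against P14 had a larger log2 difference of 2.06 but a limma adjusted p = 0.174, with 1 library at P14. Aldh1a7, a close copy that can share reads with Aldh1a1, lay between 10.4 and 20.7 in the 7 libraries without a call, and the split of reads between the copies is uncertain. The 7 listed club markers summed to 22.2 in E13.5 cells, 53.8 in E15.5, 789 and 1033 in E18.5, 2944 in P14 and 5073 and 5886 in P56, with Scgb3a1 at 0 before P14. The 10 alveolar type 2 markers took 0.0154% of the reads in E13.5 cells, 0.259% in E15.5, 1.24% and 1.17% in E18.5, 4.29% in P14 and 5.33% and 5.75% in P56. Both sums were highest at P56, like Aldh1a1, and above E18.5 at P14, where Aldh1a1 had its lowest value. In the club list Cbr2 made up 2459 of the sum in P14. The other 6 club markers summed to 348.8 and 506 in the E18.5 libraries, 484.5 in the P14 library, and 1576 and 1544 in the P56 libraries. Without Cbr2, P14 thus lay between the E18.5 libraries, and P56 above all. Pon1 weighed on that sum, with 235 and 376 in the E18.5 libraries and 154 in P14. The rest of the list was higher in P14 than in both E18.5 libraries. Scgb1a1 had 15.0 and 14.7 in E18.5 and 91.6 in P14, and Hp 36.2 and 51.2, and 162. The type 2 sum without Sftpc stayed above E18.5 in the P14 library. The part of club and type 2 cells in the Aldh1a1 difference was not tested.

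Aldh1a2, the enzyme that supplies most retinoic acid in the mouse embryo (chromosome 9, 71215789 to 71296243), had 11 reads in E13.5 cells, 8 in E15.5, 0 in both E18.5 libraries, 5 at P14 and 11 and 7 at P56. As scaled counts these were 2.60 (1.30 to 4.65), 2.87 (1.24 to 5.66), 0 and 0, 1.38 (0.447 to 3.21), and 3.13 and 2.27. Every library outside E18.5 lay above the E18.5 libraries, where an exact interval still allows up to 1.42 and 1.39. At E18.5 against the early stages Aldh1a2 had a log2 difference of -1.90 with limma (adjusted p = 0.0258). edgeR gave -6.18 (adjusted p = 0.0365). In pooled reads Aldh1a2 was 4.74-fold lower at E18.5. The exact interval of that ratio reached up to 0.286. At P56 against E18.5 its log2 difference was 1.88 with limma (adjusted p = 0.0451). edgeR gave 6.11 and did not call it (adjusted p = 0.0612). In pooled reads it was 4.77-fold higher at P56. The exact interval of the P56 ratio began at 3.50. Both folds use a floor of 3 reads over the E18.5 libraries together. Without the E13.5, the P14 or either P56 library Aldh1a2 did not pass the filter and could not be tested, and without E15.5 the fall lost its call (limma adjusted p = 0.0612; edgeR adjusted p = 0.0566). edgeR without E18.5 replicate 1 or replicate 2 did not call the fall of Aldh1a2 either (adjusted p = 0.0639 and 0.0753). Of the 9 listed mesothelial markers, Wt1 had 4 reads at E15.5 and 0 elsewhere, and Upk3b 0 or 1 read in every library. The list summed to 4.49 in E13.5 cells, 30.9 in E15.5, 554 and 735 in E18.5, 29.2 in P14 and 32.7 and 7.13 in P56, of which Msln made up 549 and 733 at E18.5. Without Msln the other 8 summed to 4.49 in E13.5 cells, 10.4 in E15.5, 5.005 and 2.64 in E18.5, 17.3 in P14 and 29.0 and 5.83 in P56. At E18.5, 7 and 6 of the 9 were at 0 reads. Among them Gpm6a had 6 reads in E13.5 cells, 5 in E15.5, 8 in P14 and 4 and 2 in P56, the same libraries in which Aldh1a2 had reads. Others of the list ran differently. Upk1b had 3 reads in E13.5 cells, 8 in E15.5, 13 and 6 in E18.5, 51 in P14 and 68 and 11 in P56. Lrrn4 had 1 read in E13.5 cells, 6 in E15.5, 0 in E18.5 and P14, and 13 and 0 in P56. The part of mesothelial cells in the Aldh1a2 differences was not tested.

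Aldh1a3, the retinaldehyde dehydrogenase (chromosome 7, 66390890 to 66427517) with the fewest reads, had 2 at E13.5, 1 at E15.5, 0 in both E18.5 libraries, 1 at P14 and 1 and 0 at P56. No difference between stages was detectable at this depth.

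Storage and response genes of the pathway were read from a list of 71 further genes, of which 52 were listed and 34 tested. Lrat, which esterifies retinol for storage, had 0 reads in E13.5 cells, 3 in E15.5, 0 in both E18.5 libraries, 5 at P14 and 15 and 28 at P56. At P56 against E18.5 its log2 difference was 2.86 with limma (adjusted p = 0.0151). edgeR gave 7.39 (adjusted p = 0.0131). In pooled reads it was 11.4-fold higher at P56, with a floor of 3 reads over the E18.5 libraries. The exact interval of that ratio began at 8.88. Without P56 replicate 1 or P56 replicate 2 edgeR did not call Lrat (adjusted p = 0.0505 and 0.204). Cyp26b1, which degrades retinoic acid, had 0 to 4 reads per library.

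Among the 6 tested of 14 listed genes known to respond to retinoic acid, Gprc5a, a receptor-like gene first described as induced by retinoic acid, was the most changed. It had 179 in E13.5 cells, 439 in E15.5, 2924 and 3697 in E18.5, 1379 in P14 and 662 and 641 in P56. It rose at E18.5 against the early stages by a log2 difference of 3.55 (limma adjusted p = 3.81e-05) and fell by 2.33 at P56 against E18.5 (limma adjusted p = 0.000373). Tgm2, a transglutaminase, had 27.9 in E13.5 cells, 42.7 in E15.5, 81.6 and 82.9 in E18.5, 71.0 in P14 and 20.2 and 36.0 in P56. It rose by 1.23 at E18.5 (limma adjusted p = 0.0226) and fell by 1.57 at P56 against E18.5 (limma adjusted p = 0.0161), log2 differences both. The Hox genes of the list had at most 10 reads in any library. At E18.5 against the early stages 2 of the 6 rose and 1, the homeobox gene Meis2, fell, 50%, against 29.1% of all genes. The median log2 difference of the 6 was -0.68, against 0.03 over all tested genes. Gprc5c, Ret and Nr2f2 had log2 differences of -1.48, -0.76 and -0.60 there, without a call. At P56 against E18.5, 2 of the 6 fell, 33.3%, against 14.2% of all genes. Gprc5a and Tgm2 were highest at E18.5 and Rarb at E13.5. The summed alveolar type 1 markers given above were also highest at E18.5; the part of type 1 cells in these levels was not tested.

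Over the whole list of 34 tested genes, 5 rose and 2 fell at E18.5 against the early stages, 20.6% of them, against 29.1% of all tested genes (median log2 difference 0.37, against 0.03 over all tested genes). The 5 that rose were Gprc5a, Lrp2, Fabp5, Tgm2 and Dhrs3. Meis2, a homeobox gene named after its values were seen, was among those that fell, and its fall (limma adjusted p = 0.0445) was not called by edgeR (adjusted p = 0.127). Without the E13.5 library 3 rose and 0 fell with limma and with edgeR, with 9 and 8 of 32 tested genes at an unadjusted p under 0.05 (limma then called 1603 of 12360 genes), and Tgm2 and Dhrs3 were no longer called (limma adjusted p = 0.132 and 0.175). At P14 against E18.5, Lrp2 and the coactivator Ncoa1 rose and Gprc5a fell, 8.82% of the list against 3.11% of all genes (median 0.09, against 0.08 over all genes). Without robust variance estimates limma called 0 of the list in that comparison, with 3 genes higher and 3 lower of all 12964. At P56 against P14 none of the 34 was called by limma, 8 had an unadjusted p under 0.05, and edgeR called 2, where limma called 0.818% and edgeR 2.06% of all genes. At P56 against E18.5, 3 rose (Lrp2, Lrat and Ncoa1) and 2 fell (Gprc5a and Tgm2), 14.7% of the list against 14.2% of all genes, with a median of 0.31, against 0.06 over all genes. Of the 13 tested receptors and coregulators, none was called at E18.5 against the early stages by limma or edgeR, against 29.1% and 30.8% of all genes, and 4 had an unadjusted limma p under 0.05. Ncoa1 was the only one called at P56 against E18.5, where 14.2% of all genes were, with 128 and 122 at P56, against 70.1 and 58.0 at E18.5 (log2 difference 0.96, limma adjusted p = 0.0249). edgeR did not call Ncoa1 there without E18.5 replicate 2 or either P56 library (adjusted p of 0.0689 to 0.127).

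**Figure D3:**
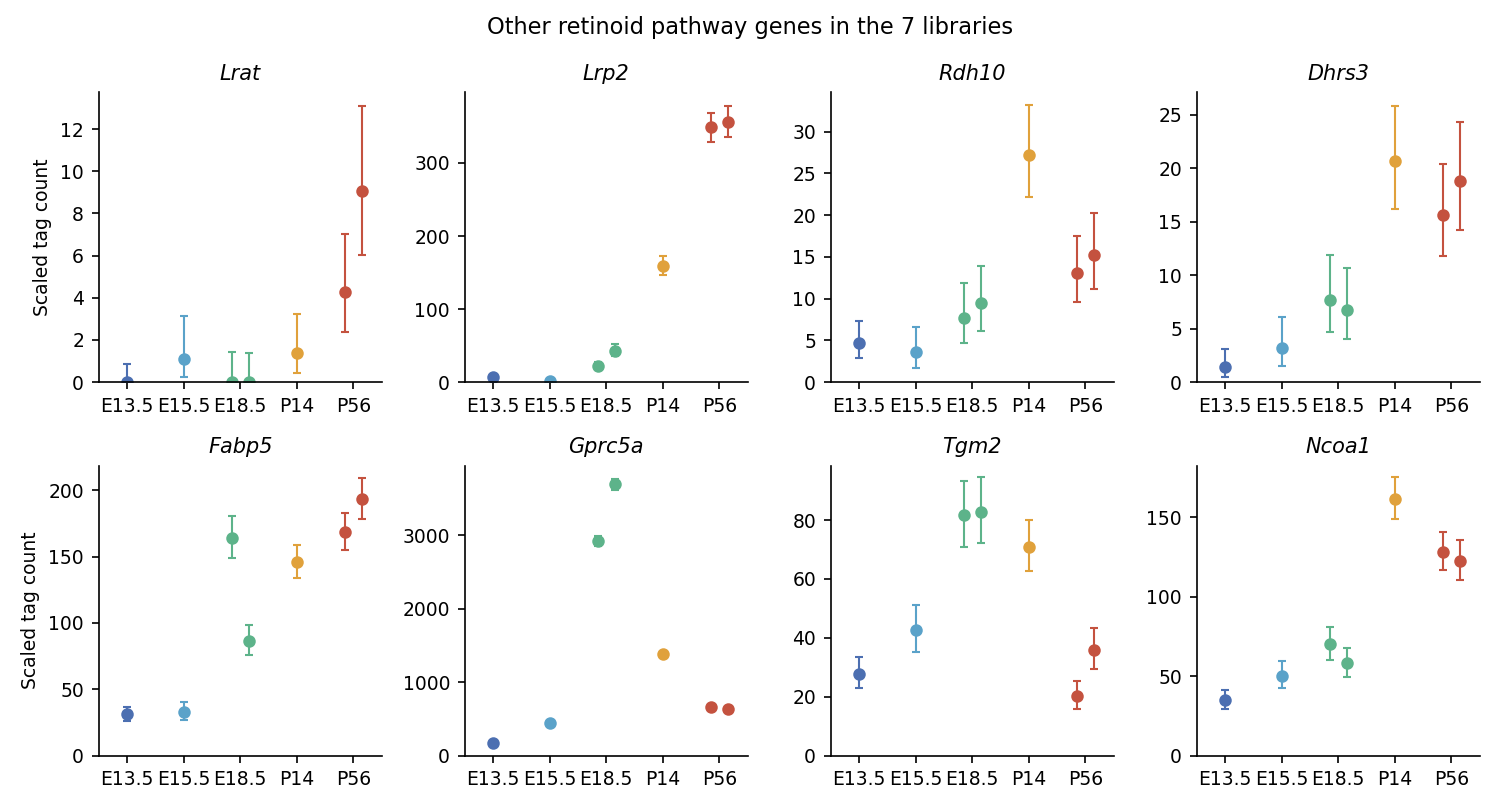
Scaled tag count (y axis, a scale of its own in each panel) of 8 further genes of the pathway at the 5 stages (x axis); each point is 1 library and bars are 95% exact Poisson intervals of its reads. Gprc5a and Tgm2 are highest at E18.5, Rdh10, Dhrs3 and Ncoa1 at P14, and Lrp2, Lrat and Fabp5 at P56.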

How the data were processed

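The authors deposited 1 table per library with a signal per gene: tag counts divided by 1 factor per library. This unit was read from the values, since dividing each column by its smallest step gave whole reads for 100% of genes (tolerance 0.01 reads). The mm10 build, the aligner Bowtie2 2.2.5 and R 3.4.0 are named, per the submitters' processing notes; the counting program, annotation, strand handling and scaling method are not given in the sources used here.

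Genes had to pass filterByExpr with the stages as groups, applied to recovered reads (minimum count 10). limma-trend on log2(value + 1), with robust variance estimates, fitted all 7 libraries with 1 coefficient per stage and 2 residual degrees of freedom. edgeR and DESeq2 on the recovered reads, changed scaling, filter or pseudocount, a block for replicate number and fits without 1 library were the alternatives. The scripts were tested on simulated data. The members and lists were chosen with earlier results of these data known. Named besides the members were the 5 called pathway genes with the smallest adjusted p per comparison and 10 set pathway genes, of which some are not reported here; genes with a like pattern were to be named for members with a stage mean of at least 100, which none had. Adh5, Aldh1a7, Meis2, Gprc5c, Ret, Nr2f2 and the single marker genes were named after their values were seen. Positions are from GENCODE vM21 (GRCm38). DESeq2 1.42.0, edgeR 4.0.16 and limma 3.58.1 ran in R 4.3.3, and figures were drawn with matplotlib 3.10.9 in Python 3.11.15.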

Additional observations from a re-analysis of the deposited data

How the results depend on the processing

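At E18.5 against the early stages, 3 members were called. DESeq2 called 1 and limma with a replicate block 1, Adh1 in both, where 2443 and 1893 genes were called in all, against 3779. At E18.5 against the early stages limma without the filter called 2, Aldh1a2 and Stra6, both lower, and no longer Rarb or Adh1. It called 1352 genes higher and 2267 lower there, of 21121. Stra6 had 0 reads in all E18.5 and P56 libraries, the stages that give the spread. Its call had no spread of its own and rested on the 12 reads of the E13.5 library, so nothing is drawn from it. edgeR without the filter, given below, called 2461 genes higher and 2013 lower in that comparison, of 21121. At P14 against E18.5 it called 783 higher and 497 lower, and at P56 against E18.5 1413 higher and 1249 lower. The counts that follow for left-out libraries are of members at E18.5 against the early stages. With each library left out in turn the count ran from 0 to 2. At P56 against E18.5, 4 members were called with 1843 genes. edgeR called 2 (Rbp4 and Adh1, of 2097 genes), DESeq2 1 (Adh1, of 1257), limma without a filter on low values 0 (of 679, on 21121 genes), limma with a replicate block 2 (of 894) and edgeR with the block 2 (of 1902). With each library left out the count ran from 0 to 4. At P14 against E18.5 no member was called, and edgeR without the filter, added after the data were seen, called 1 (Rbp4), beside 3 at E18.5 against the early stages and 4 at P56 against E18.5, the same members as limma with the filter; with each library left out the count ran from 0 to 1. At P56 against P14 it was 0 (Aldh1a1 limma adjusted p = 0.174 with all libraries). edgeR called Aldh1a1 there only with 1 E18.5 library left out, and those fits also called more of all genes than with all libraries. Its log2 difference ran from 1.12 to 2.81 over the alternative fits.

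Leaving out an E18.5 or P56 library left limma 1 residual degree of freedom, and it called 0 of all genes in each comparison, with 2 to 4 members at an unadjusted p under 0.05 at P56 against E18.5. Those fits say nothing of stability. At P56 against E18.5 edgeR called more of all genes with an E18.5 library left out than with all libraries. With a P56 library left out it called fewer. Calls gained or lost in those edgeR fits thus cannot be read for a single gene alone. Without P56 replicate 1 or replicate 2 edgeR called Adh1 alone at P56 against E18.5. The replicate numbers carry no stated pairing: the differences between replicates correlated at r = 0.00982 over 12964 genes between P56 and E18.5.

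The difference of Rarb between P56 and E18.5, 0.02, turned to -0.12 with edgeR, -0.0946 with DESeq2, -0.0401 with TMM scaling, -0.00379 with a pseudocount of 5, -0.0916 with edgeR and a replicate block and -0.0919 with edgeR without the filter, and ran from -0.59 to 0.56 with each library left out, for instance 0.457 with limma without E18.5 replicate 1, -0.424 with limma without E18.5 replicate 2 and -0.408 with edgeR without P56 replicate 2. No other member turned direction. CPM scaling moved the median difference of all genes at E18.5 against the early stages to -0.11, from 0.03, and left the 3 members called there. The cause of these changes was not tested. At this depth 3 of 8 members had too few reads for a test.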
